A study of Oryza sativa with 36 samples.

Results

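The 4-coumarate CoA ligases 4CL1 to 4CL5 and the laccases LAC15 and LAC19 were followed in rice seedlings under the control, salt and salt+ABA (abscisic acid) treatments. These 7 genes, 5 ligases and 2 laccases, were found by symbol or synonym among the 17905 genes that the array annotation names, and each had at least 1 probe set. The members were selected on measured values of these arrays: 4CL5 on its lower level under salt in shoots set against its level in roots, and LAC19 and LAC15 on their higher level in roots under salt+ABA than under salt. The treatment and organ values of these 3 genes are therefore given as a description, with no test. The responses of 4CL1 to 4CL4, which complete the ligase family, and the differences between the genotypes did not enter the selection and were tested. The responses that led to the selection of 4CL5, LAC19 and LAC15 also enter their differences of response between the genotypes, so those tests are not independent of the selection. Earlier results of these data were known when the members and the gene list used below were chosen, which limits these tests.

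PL177 (177-103 in the labels) is a salt-tolerant line bred to the F6 from introgression material on an IR64 background, and IR64, the parent of that background, is moderately salt sensitive, so that the genotype comparison rests on 1 line of each. Both were grown in nutrient solution to the 3-leaf stage and then kept without addition (control), with 140 mM NaCl (salt), or with 140 mM NaCl and 10 µM ABA (salt+ABA). ABA alone was not among the treatments, so an ABA difference is always one between salt+ABA and salt. The seedlings had been in culture for 11 d, NaCl was added in 3 steps, and the labels give 4 d of treatment. The labels call the shoot samples leaf, where the study speaks of shoots. Each of the 12 groups of genotype, organ and treatment had 3 arrays, 36 in all, which the study describes as independent biological replicates.

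The general phenylpropanoid pathway turns phenylalanine into hydroxycinnamic acids, and 4-coumarate CoA ligase joins these acids to coenzyme A. The thioesters so formed are the shared entry to lignin, flavonoids and soluble phenolics. On the lignin branch they are reduced to monolignols, and laccases, secreted multicopper oxidases, oxidise monolignols in the cell wall so that they couple into lignin. In rice, 4CL3 is known for its role in lignin formation and 4CL2 for its link to flavonoids, and 4CL4 is also known as RAL1, a name from work on aluminium resistance in roots.

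Intensities were read on a linear scale, and a difference below is one of log2(intensity + 32) after quantile normalization, so that differences of dim genes are understated. A gene was called where the difference exceeded 2-fold with a limma p, adjusted over all 57258 probe sets, below 0.05. Groups said not to overlap are a description only, as the share of all probe sets that separate in this way was not computed. Array medians ranged from 56.8 to 64.3, and intensities below 32 made up 31.2% of all values, so that levels of 10 or 20 are among the dimmest of an array. Of the 5 shoot marker genes, 4 were brighter on every shoot array than on every root array, and RBCS1 stayed between 1.47 and 8.40 in both organs. Of the 5 root marker genes, this held for Lsi1 and Lsi2, the silicon transporters, and the other root markers overlapped between organs. The shoot markers were not constant in roots: their summed intensity was 7414 to 15643 in PL177 and 10116 to 15102 in IR64 under the control, 17704 to 19885 and 16475 to 25160 under salt, and 5424 to 7499.6 and 6206 to 8553 under salt+ABA, against 59638 to 64279 on the shoot arrays. The root markers shifted as well: in shoots their summed intensity was 3738 to 5169 under the control, 1293 to 2222 under salt and 1812 to 2369 under salt+ABA, and in roots it was 22288 to 25373, 21803 to 24815 and 16555 to 18904. In shoots the brightest root marker by median was NAAT1, at 857 to 4180, against 295 to 1105 for Lsi1 and 8.49 to 77.5 for Lsi2. NAAT1 was not root-bright here, with 358 to 2193 in roots. No marker was at 0, and the part of the marker shifts in the shoot and root results was not tested.

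The ligases differed most between organs. 4CL1 was the root-bright member: its intensity was 1713 at the lowest, 2057 at the median and 2367 at the highest over the 18 root arrays, and 292, 398 and 516 over the 18 shoot arrays. 4CL2 had the reverse pattern, with 1641, 2462 and 3330 over the shoot arrays and 14.4, 19.4 and 21.8 over the root arrays, and neither gene overlapped between the organs. In the fit over all 36 arrays, the shoot level of 4CL1 was lower in all 6 comparisons of genotype and treatment, by a log2 difference between -2.67 and -2.39 (SE 0.11), and that of 4CL2 was higher in all 6, by 5.16 to 5.83 (SE 0.13), with adjusted p-values of at most 4.87e-17 and 4.28e-22. These 12 calls were the only ones among the 32 organ tests of 4CL1 to 4CL4, which were 24 of levels and 8 of salt responses. Shoots and roots differed widely over the whole array as well: 16.3%, 14.1% and 17.7% of the probe sets were called in PL177 under control, salt and salt+ABA, and 16.0%, 14.2% and 17.4% in IR64. In whole organs, fewer cells that express a gene and less RNA per cell cannot be told apart.

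**Figure D1:**
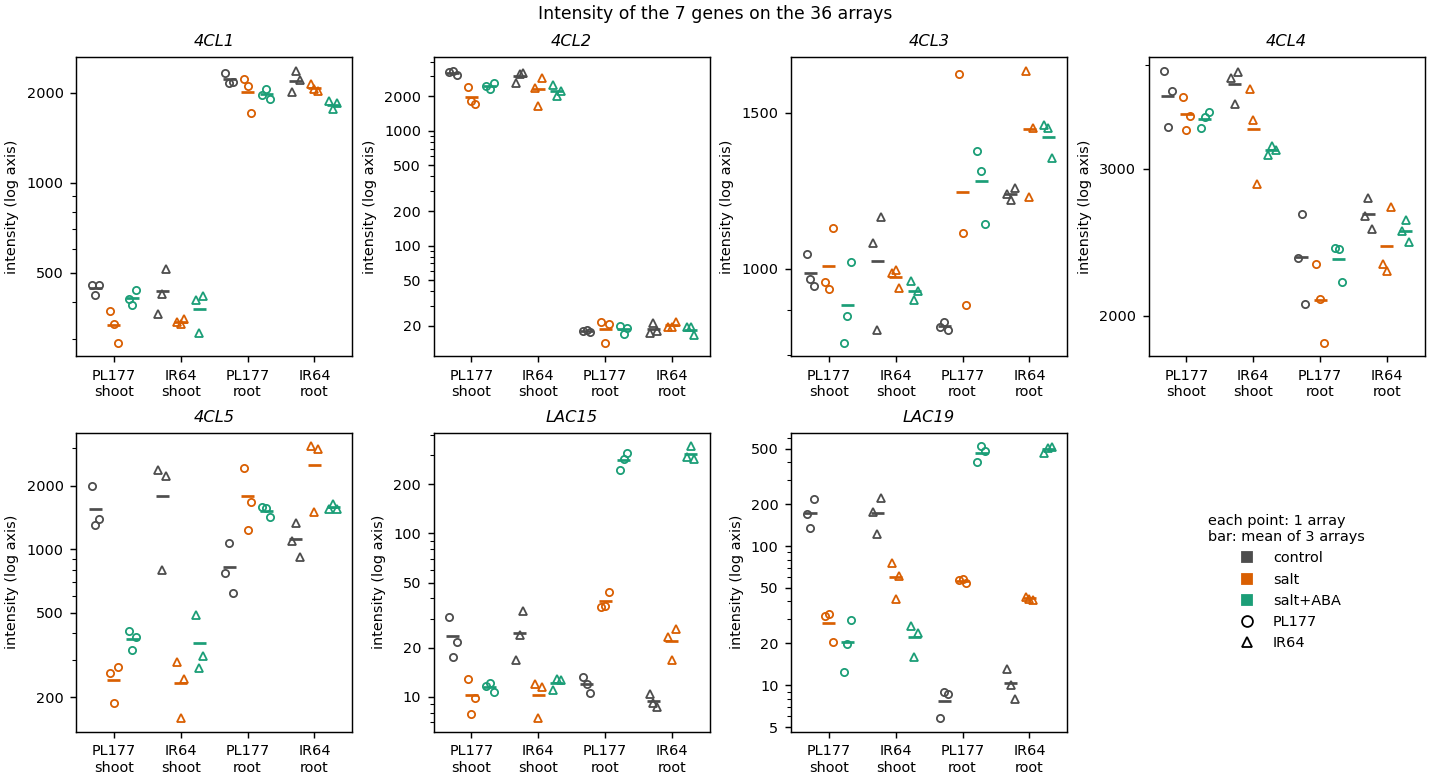
Intensity (log axis) of the 7 genes on each of the 36 arrays, grouped by genotype and organ, with grey for control, orange for salt and green for salt+ABA, circles for PL177, triangles for IR64 and a bar at the mean of 3 arrays. 4CL1 lay between 1713 and 2367 in roots and between 292 and 516 in shoots, 4CL2 did not exceed 21.8 in roots, and LAC19 reached 403 to 522 only in roots under salt+ABA.

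4CL3 and 4CL4 were bright in both organs. 4CL3 had 826, 968 and 1143 as lowest, median and highest intensity in shoots and 854, 1225 and 1672 in roots. Its log2 difference between shoots and roots ran from -0.80 to -0.06 (SE 0.13), and none of the 6 passed 2-fold. For PL177 under the control the sign depended on the scaling: it was -0.06 after quantile normalization and 0.19 with no further normalization. 4CL4 had 2873, 3464 and 3933 in shoots and 1857, 2405 and 2771 in roots, so that the deposited intensities did not overlap. Its normalized difference was -0.02 to 0.48 (SE 0.08), and without further normalization 0.32 to 0.74, again below 2-fold. In IR64 under salt+ABA the sign of 4CL4 changed with the scaling, from -0.02 to 0.32.

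Under salt and salt+ABA the same 4 ligases moved little. None of the 48 treatment tests of 4CL1 to 4CL4 was called, against 0.711% to 2.35% of all probe sets across the 12 treatment comparisons. Before adjustment 12 of the 48 had a p below 0.05, and 2 kept an adjusted p below 0.05 without reaching 2-fold. Limma with an intensity trend and robust variances called none of the 48. A t-test, which after adjustment called 0 to 754 probe sets in a comparison, called none either, and 10 of 48 had an unadjusted t-test p below 0.05. The differences lay between -0.65 and 0.33 in shoots and between -0.25 and 0.47 in roots.

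4CL2 carried the lowest of these adjusted p-values. Its shoot intensities in PL177 were 3219.6, 3330.2 and 3078 under the control and 2407, 1825 and 1699 under salt. No salt array reached a control array, and the log2 difference was -0.65 ± 0.18 (SE), with an adjusted p of 0.029 and a change below 2-fold. In IR64 the control arrays read 2607, 3126 and 3200.3 and the salt arrays 2353, 1641 and 2888. The IR64 groups overlapped at the third salt array, and the difference of -0.33 ± 0.18 had an adjusted p of 0.307. Under salt+ABA the shoot arrays read 2440.3, 2307 and 2587 in PL177 and 2484, 1988 and 2213 in IR64, all below the control arrays of their genotype, with adjusted p-values of 0.345 and 0.281.

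4CL1 had the next lowest p-value in shoots. PL177 shoots read 455, 419.8 and 456 under the control, 373, 336 and 292 under salt and 409, 390.5 and 437 under salt+ABA, so that the salt arrays were the lowest and overlapped with neither other group. The salt difference was -0.42 ± 0.13 with an adjusted p of 0.0502. In IR64 shoots the arrays read 365, 424 and 516 under the control, 342, 336 and 349 under salt and 406, 314 and 417 under salt+ABA. The salt arrays lay below the control arrays and within the salt+ABA range, with a salt difference of -0.30 (adjusted p 0.191). In roots, all differences of 4CL1 were between -0.22 and 0.02.

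4CL3, the ligase known for lignin, was higher in PL177 roots under both treatments. Its PL177 root arrays read 861, 870.5 and 854 under the control, 1659, 1098 and 910.0 under salt and 1356, 1291 and 1125 under salt+ABA. The control arrays were close together and below every treated array, and the salt arrays were spread over a wide range. The salt+ABA difference was 0.47 ± 0.15 (adjusted p 0.0467, below 2-fold) and the salt difference 0.38 (adjusted p 0.112). IR64 roots started from 1216, 1196 and 1235 and read 1672, 1206 and 1440.2 under salt and 1454, 1439.7 and 1333 under salt+ABA, with differences of 0.20 and 0.21 and adjusted p-values of 0.476 and 0.431. In shoots the differences of 4CL3 lay between -0.15 and 0.04. 4CL4, the RAL1 gene, went no lower than -0.18 in shoots and lay between -0.25 and 0.21 in roots. Its dimmer second probe set read 30.5 to 53.1 over all arrays, and its lowest adjusted p under treatment, 0.00876 in IR64 roots under salt, went with a difference of -0.26, below 2-fold.

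The difference between the salt responses of shoots and roots was not called for any of the 4 ligases in either genotype, while 2.72% of all probe sets were called for it in PL177 and 2.93% in IR64. The lowest adjusted p was that of 4CL2 in PL177, where the shoot response was below the root response, at -0.67 ± 0.19 (adjusted p 0.0239, below 2-fold).

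4CL5, the fifth ligase, stood apart from the others by its treatment values, on which it was selected. The probe set is assigned to 4CL5 by the platform annotation, whereas a supplementary table of the study lists it under the names of adenylyl cyclase associated protein and 4-coumarate CoA ligase 1, so its assignment rests on the annotation. That table already reports it as lower in shoots and higher in roots of both genotypes under salt, the directions described here. PL177 shoots read 1983, 1297 and 1393 under the control, 259.8, 187 and 278 under salt and 412, 335 and 386 under salt+ABA. The treated arrays were all below the control arrays, and the salt+ABA arrays were all above the salt arrays. The log2 differences were -2.52 for salt, -1.93 for salt+ABA against control and 0.59 for salt+ABA against salt (SE 0.33). IR64 shoots read 2369, 797 and 2221 under the control, 294, 159 and 244 under salt and 488, 275 and 313 under salt+ABA, with differences of -2.62, -2.07 and 0.55. Here too no treated array reached a control array, but the salt and salt+ABA arrays overlapped. The second IR64 control array was well below the other two, and without it the salt and salt+ABA differences from control were -3.06 and -2.52. Across the shoot comparisons, 2.25%, 1.04% and 0.711% of all probe sets were called in PL177 for salt, salt+ABA against control and salt+ABA against salt, and 2.35%, 1.09% and 0.747% in IR64.

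In roots, 4CL5 was higher under salt instead. PL177 roots read 770.4, 1068 and 625 under the control, 2419, 1238 and 1673 under salt and 1583, 1559 and 1421 under salt+ABA, with differences from control of 0.98 and 0.84 (SE 0.26). IR64 roots read 1099, 1327 and 923 under the control, 3069, 1497 and 2965 under salt and 1546, 1634 and 1552 under salt+ABA, with differences of 1.05 and 0.51. All treated root arrays were above the control arrays of their genotype, and the salt+ABA arrays lay within the range of the salt arrays, at -0.14 and -0.54 relative to salt. Without the second IR64 salt array, the lowest of its group, these IR64 values were 1.39 for salt against control and -0.88 for salt+ABA against salt. Without the first PL177 salt array, the highest of its group, salt+ABA stood at 0.08 relative to salt in PL177 in place of -0.14. The summed shoot markers were higher in roots under salt too, and their part in the root values of 4CL5 was not tested.

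The organ order of 4CL5 thus changed with treatment. Under the control, its shoot level was above the root level in PL177, by 0.62 (SE 0.30), and overlapped with it in IR64, at 0.24. Under salt the shoot level was the lower one, at -2.84 and -3.37 relative to roots in PL177 and IR64, and likewise under salt+ABA, at -2.12 and -2.28. In the order of its 12 group means, IR64 roots under salt were the highest, at 2510.4 ± 879 (mean ± SD of 3 arrays), and IR64 control shoots, PL177 salt roots, IR64 salt+ABA roots, PL177 control shoots and PL177 salt+ABA roots followed, each overlapping with the next. The control roots of IR64 and PL177 came below these, and a gap separated them from the treated shoots. The lowest groups were the salt shoots of PL177, at 241 ± 48.3, and of IR64, at 232 ± 68.2, which overlapped. The lowest array carried the same replicate number in both genotypes in 5 of the 6 combinations of organ and treatment, and the highest in 4 of 6, although the labels do not tie arrays of one number together.

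**Figure D2:**
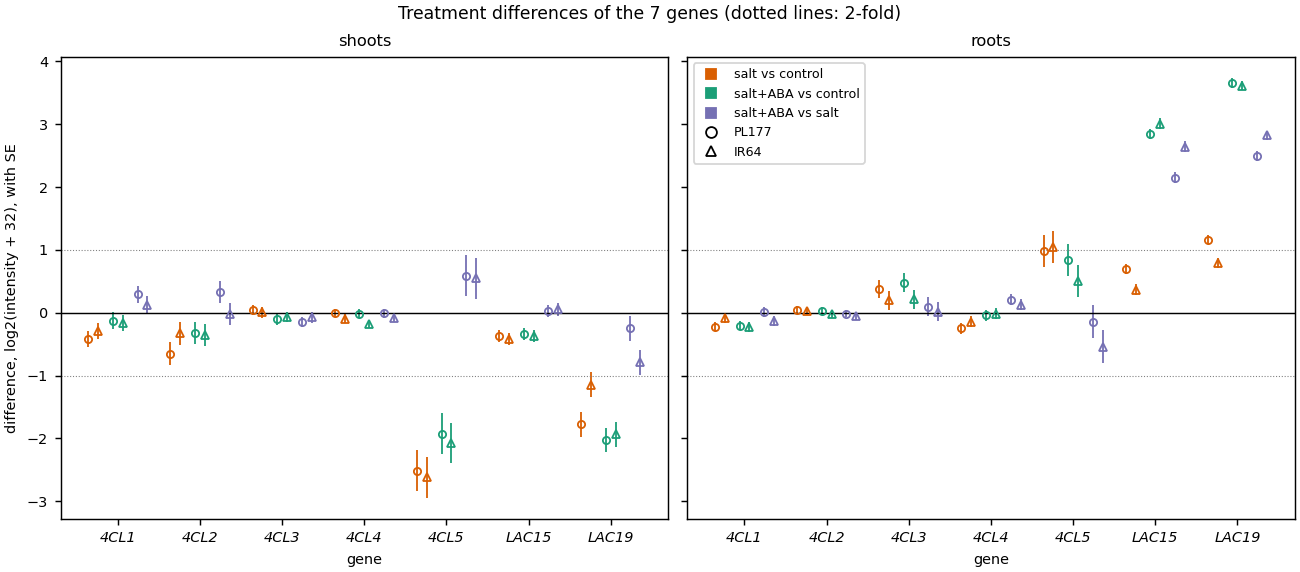
Difference in log2(intensity + 32) for salt against control (orange), salt+ABA against control (green) and salt+ABA against salt (purple) for each of the 7 genes in shoots (left) and roots (right), with circles for PL177, triangles for IR64 and bars for the SE of the limma fit. 4CL1 to 4CL4 stayed between -0.65 and 0.47, inside the dotted lines at 2-fold, 4CL5 lay at -2.52 and -2.62 under salt in shoots, and LAC19 at 3.66 and 3.61 under salt+ABA against control in roots.

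LAC19, one of the secreted laccases, was dim in control roots and bright in roots under salt+ABA, values on which it was selected. PL177 roots read 5.80, 8.89 and 8.61 under the control, 56.9, 58.0 and 54.6 under salt and 403, 522 and 481 under salt+ABA. IR64 roots read 13.1, 10.0 and 7.97 under the control, 43.4, 41.9 and 41.1 under salt and 468, 504 and 514 under salt+ABA. In both genotypes the treatments formed separate steps with no overlap, and the salt+ABA arrays were above every other array of the series, the highest shoot array being at 220.5. These separations are a description, with no share of all probe sets to set beside them. The log2 differences in PL177 roots were 1.16 for salt, 3.66 for salt+ABA against control and 2.49 for salt+ABA against salt, and those in IR64 roots were 0.79, 3.61 and 2.82 (SE 0.08). Of all probe sets, 1.34%, 2.01% and 1.37% were called in these comparisons of PL177 roots and 1.20%, 1.67% and 1.30% in those of IR64 roots. Because the control level is so dim, the size depends on the added constant: with 8 in place of 32 the salt+ABA differences from control were 4.93 and 4.75, and with a larger constant they shrank to 2.14 and 2.16.

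In shoots LAC19 went the other way. PL177 shoots read 169, 135 and 218 under the control, 31.6, 32.6 and 20.4 under salt and 12.5, 19.9 and 29.4 under salt+ABA. IR64 shoots read 176, 122 and 220.5 under the control, 76.2, 41.5 and 60.8 under salt and 26.7, 15.9 and 23.9 under salt+ABA. Every treated array was below every control array, and the salt+ABA arrays of IR64 were also all below its salt arrays, whereas those of PL177 overlapped. The differences from control were -1.78 and -1.14 under salt and -2.02 and -1.94 under salt+ABA in PL177 and IR64, and salt+ABA stood at -0.25 and -0.79 relative to salt (SE 0.20). Set against the root level, the shoot level of LAC19 was above it under the control, by 2.38 and 2.24, at -0.55 and 0.32 under salt, and below it under salt+ABA, at -3.35 and -3.36. In the order of the 12 groups, both root salt+ABA groups came first and overlapped, both control shoot groups came next and overlapped, and the control roots came last, IR64 at 10.4 ± 2.59 and PL177 at 7.77 ± 1.71 (mean ± SD of 3 arrays), again overlapping.

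LAC15, the second laccase, showed the same steps in roots. PL177 roots read 13.2, 12.1 and 10.6 under the control, 35.3, 35.8 and 44.0 under salt and 244, 284 and 311 under salt+ABA. IR64 roots read 10.5, 9.15 and 8.73 under the control, 23.3, 16.8 and 26.1 under salt and 295, 341 and 285 under salt+ABA. No treatment group overlapped with another within a genotype, and only the root salt+ABA arrays exceeded 44.0. The differences of salt+ABA from control were 2.84 in PL177 and 3.01 in IR64, those of salt+ABA from salt 2.15 and 2.64, and those of salt from control 0.70 and 0.37 (SE 0.09). With 8 added, the salt+ABA differences from control were 3.87 and 4.14, and with the larger one 1.55 and 1.65. On the root salt+ABA arrays, where both laccases were highest, the summed shoot markers were 5424 to 8553 and the summed root markers 16555 to 18904, and the part of these shifts was not tested.

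In shoots LAC15 stayed near the floor of the array. PL177 shoots read 31.0, 17.5 and 21.7 under the control, 12.9, 7.83 and 9.84 under salt and 11.6, 12.1 and 10.7 under salt+ABA. IR64 shoots read 16.9, 23.8 and 33.4 under the control, 11.9, 7.41 and 11.6 under salt and 11.1, 12.8 and 12.8 under salt+ABA. The treated arrays were below the control arrays in both genotypes and did not separate from each other, with differences from control between -0.42 and -0.34 (SE 0.10). Intensities this low are compressed by the added 32, and no detection call was used here to say whether the transcript was present. Under a minimum mean intensity of 64, 6 of the 7 members passed in shoots, all but LAC15, and 6 of 7 in roots, all but 4CL2. In roots LAC15 and LAC19 passed through their salt+ABA arrays, as their other root group means did not exceed 38.4 and 56.5. In shoots LAC19 passed through its control arrays, its other shoot group means being 20.6 to 59.5.

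LAC15 and LAC19 lie on chromosomes 10 and 11, and followed each other across groups. Over the 12 group means of log2(intensity + 32) the Pearson correlation between them was 0.87, and within the 6 root groups and the 6 shoot groups it was 0.99 and 0.91. These are descriptions over group means that share arrays, and both genes were selected on the same root contrast. Within shoots, LAC15 also followed 4CL5, with a correlation of 0.99 over 6 groups, both being highest under the control. This was not particular to the pair: in shoots 4CL2 correlated with 4CL5 at 0.95 and with LAC15 at 0.93, though 4CL3 correlated with 4CL5 at 0.36. LAC15 was also near the floor there. Within roots the correlation of LAC15 with 4CL5 was 0.28, and 4CL5 was not higher under salt+ABA than under salt.

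**Figure D3:**
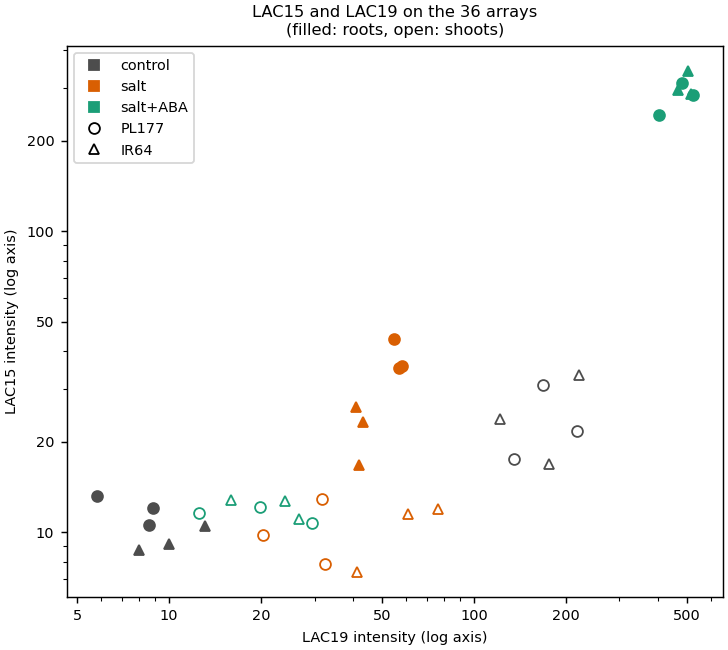
Intensity of LAC15 against that of LAC19 (both log axes) on each of the 36 arrays, with grey for control, orange for salt and green for salt+ABA, circles for PL177, triangles for IR64, and filled symbols for roots. The 6 root arrays under salt+ABA stand alone at 403 to 522 for LAC19 and 244 to 341 for LAC15, and the 6 control root arrays lie at the lower left, at 5.80 to 13.1 and 8.73 to 13.2.

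The gene next to LAC19 in the gene table of assembly ASM3414082v1 is LAC20, another laccase and a member of the pathway list, and it behaved differently. LAC20 was bright in shoots, at 234 to 2570 over the 18 arrays, and stayed at 15.3 to 24.2 on every root array, salt+ABA included. In control shoots it read 2569.8, 711 and 256 in PL177 and 2166, 840.1 and 234 in IR64, so that the arrays of each group were far apart and fell in the same order of replicate numbers in both genotypes. It was not called in any treatment comparison.

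None of the 7 members differed between the genotypes by the test. Across the 42 tests of PL177 against IR64 within organ and treatment, 0 were called, with 5 at an unadjusted p below 0.05 and no adjusted p below 0.0999. Limma with trend and robust variances also called 0, as did the adjusted t-test, which called no more than 25 probe sets in any of these comparisons. Before adjustment, 6 of 42 t-test p-values were below 0.05, and 0 went with over 2-fold. Few genes differed anywhere: 0.112%, 0.119% and 0.114% of the probe sets were called in shoots under control, salt and salt+ABA, and 0.107%, 0.117% and 0.114% in roots.

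The nearest to a genotype difference was LAC15 in roots under salt, where the PL177 arrays at 35.3, 35.8 and 44.0 were all above the IR64 arrays at 23.3, 16.8 and 26.1. The log2 difference was 0.40 ± 0.09 (adjusted p 0.0999). LAC19 in the same samples was also higher in every PL177 array, by 0.27 ± 0.08 (adjusted p 0.56). In shoots under salt, LAC19 was lower in every PL177 array than in every IR64 array, with the largest difference of all, -0.59 ± 0.20 (adjusted p 1). 4CL3 in control roots was lower in every PL177 array, at 861, 870.5 and 854 against 1216, 1196 and 1235, a difference of -0.44 ± 0.15 (adjusted p 0.648). The genotypes also did not overlap for LAC15 in control roots, 4CL1 in salt+ABA roots and 4CL4 in salt+ABA shoots and roots, with smaller differences (0.07, 0.09, 0.13 and -0.14). For 4CL5 the groups of the genotypes overlapped in all 6 comparisons. The share of all probe sets whose genotype groups do not overlap was not computed, so these separations are a description only.

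Nor did the size of a response differ between the genotypes by the test. Of the 42 differences of response, 0 were called, 5 had an unadjusted p below 0.05, and every adjusted p rounded to 1. Limma with trend and robust variances called 0 as well. Of all probe sets, 0%, 0.00349% and 0% were called in shoots for salt, salt+ABA against control and salt+ABA against salt, and 0.00175%, 0.00175% and 0% in roots. The largest difference was that of LAC19 in shoots under salt, -0.63 ± 0.28, and the lowest unadjusted p, 0.000958, was that of LAC15 for salt+ABA against salt in roots, -0.49 ± 0.12. LAC15 was selected on that root contrast, which limits the reading of its p. With 3 arrays a group, a missed threshold does not show that the responses were equal.

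The members were set beside 24 other genes of the phenylpropanoid and lignin pathway that had a probe set, out of 33 in the gene table. Most were cinnamyl alcohol dehydrogenases, laccases and 4CL-like genes. PAL06 was the only phenylalanine ammonia-lyase, and no gene stood for the hydroxylase or caffeoyl-CoA O-methyltransferase steps, so the list does not cover the whole pathway. It counts the brightest probe set of each gene, unlike the shares of all probe sets. This list was drawn up by gene symbol with earlier results of these data known, which limits the reading of its calls and shares. Under salt, 2 of the 24 (8.33%) were called in PL177 shoots and 2 in IR64 shoots, and 1 (4.17%) in the roots of each genotype, against 2.25%, 2.35%, 1.34% and 1.20% of all probe sets. Over the list the median salt difference was -0.04 and -0.09 in shoots and 0.02 and 0.03 in roots of PL177 and IR64, with medians of -0.01, 0.00, -0.01 and 0.00 over all probe sets. Of the 24, 5 were called in at least 1 of the 12 treatment comparisons, as were 3517 (6.14%) of all probe sets.

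PAL06, a phenylalanine ammonia-lyase that acts at the entry to the pathway, fell under salt in the shoots of both genotypes. PL177 shoots read 1541, 1183 and 967 under the control and 357, 338 and 359 under salt, and IR64 shoots read 1073, 1129 and 1616 under the control and 324, 396 and 425 under salt. The groups did not overlap, and the differences were -1.70 ± 0.16 (adjusted p 2.43e-05) and -1.61 ± 0.16 (adjusted p 3.16e-05). Under salt+ABA it fell in shoots too, by 1.61 and 1.79 on the log2 scale. In roots it was at 940.3 to 1799 on all arrays and was not called. The summed root markers, among which NAAT1 was the brightest in shoots, were lower in the same treated shoots. Their part in the shoot values of PAL06, CAD6, 4CL5 and the laccases was not tested.

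CAD6, annotated as a cinnamyl alcohol dehydrogenase, the enzyme family of the last step to monolignols, also fell under salt in shoots, from 685, 201 and 281 to 118, 72.4 and 85.1 in PL177. The IR64 arrays went from 501, 196 and 514 to 75.7, 59.7 and 84.2. The differences were -1.62 (adjusted p 0.0086) and -1.90 (adjusted p 0.00329), and the PL177 call was lost in a fit of the compared arrays alone (adjusted p 0.0757). CAD3, of the same family, rose under salt in roots, from 89.7, 125 and 83.6 to 312, 376 and 757 in PL177 and from 114, 109 and 89.2 to 354, 617 and 537 in IR64, by 1.86 (adjusted p 2.86e-04) and 1.90 (adjusted p 2.52e-04). CAD3 is shoot-bright, at 6273 to 7902 on the shoot arrays, and the summed shoot markers were higher in the same root arrays under salt, and their part in the rise was not tested. The t-test, after adjustment, called 0, 40, 8 and 10 of the 57258 probe sets under salt in PL177 shoots, IR64 shoots, PL177 roots and IR64 roots, and none of the 24 list genes was among them, a count that these totals nearly fix. Before adjustment, a t-test p below 0.05 with over 2-fold held for 1264, 1196, 699 and 642 probe sets. It held for 2, 2, 1 and 1 list genes.

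**Figure D4:**
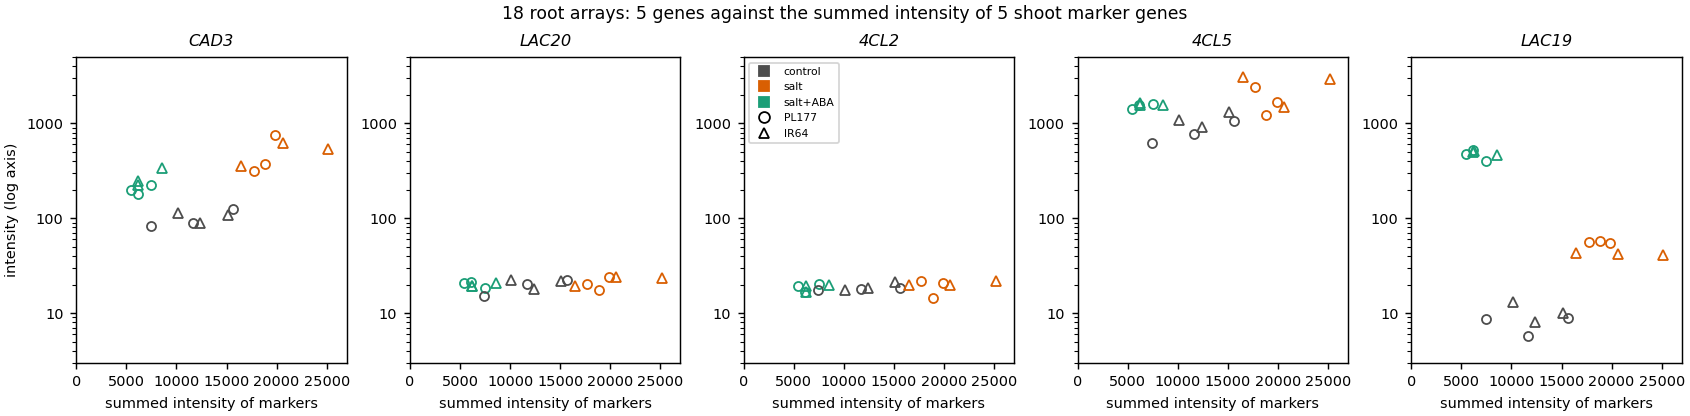
Intensity (log axis) of CAD3, LAC20, 4CL2, 4CL5 and LAC19 on the 18 root arrays against the summed intensity of 5 shoot marker genes on the same array, with grey for control, orange for salt and green for salt+ABA, circles for PL177 and triangles for IR64. The salt arrays have the highest marker sums, 16475 to 25160, LAC20 and 4CL2 did not exceed 24.2 on any root array, and LAC19 was highest, at 403 to 522, on the salt+ABA arrays, with marker sums of 5424 to 8553.

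The remaining calls of the list were with ABA, and single arrays decided most of them. In IR64 shoots under salt+ABA, CAD6 fell by 1.49 and the laccase LAC24 by 1.38 relative to control, with adjusted p-values of 0.023 and 0.0197. The CAD6 call was lost without salt+ABA replicate 2 or 3 or control replicate 1 or 3 (difference -1.42 to -1.27, adjusted p 0.0758 to 0.103), and the LAC24 call without salt+ABA replicate 1 or 2 or control replicate 2 (-1.26 to -1.21, adjusted p 0.0538 to 0.0905). LAC24 also fell relative to salt in IR64 shoots, from 759, 723 and 697 to 113, 129 and 246, by 2.05 (adjusted p 0.00265), a call that held whichever array was left out. In roots, CAD3 fell relative to salt in PL177, at -1.01 (adjusted p 0.0251), a call lost without salt replicate 3 or any 1 of the salt+ABA arrays (-1.07 to -0.64). In IR64 roots CAD3 rose by 1.11 relative to control (adjusted p 0.00975), which was lost without salt+ABA replicate 1 (0.95, adjusted p 0.0541), and CAD6 fell by 1.13 (adjusted p 3.12e-04). LAC10, the only laccase of the list called in roots, rose by 1.27 relative to salt in IR64 (adjusted p 0.0154), and the call was lost without salt replicate 2 (1.12) or salt+ABA replicate 1 (1.13). LAC15 and LAC19 differed by 2.64 and 2.82 in that comparison, and in PL177 roots, where they differed by 2.15 and 2.49, no laccase of the list was called. Uncalled laccases of the list were also higher there. From salt to salt+ABA, PL177 root means went from 380 to 700 for LAC3, 202 to 405 for LAC10 and 99.3 to 177 for LAC23. LAC7 went from 1561 to 2045 and LAC4 from 369 to 404, while LAC20 stayed at 20.6 and 20.2.

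**Figure D5:**
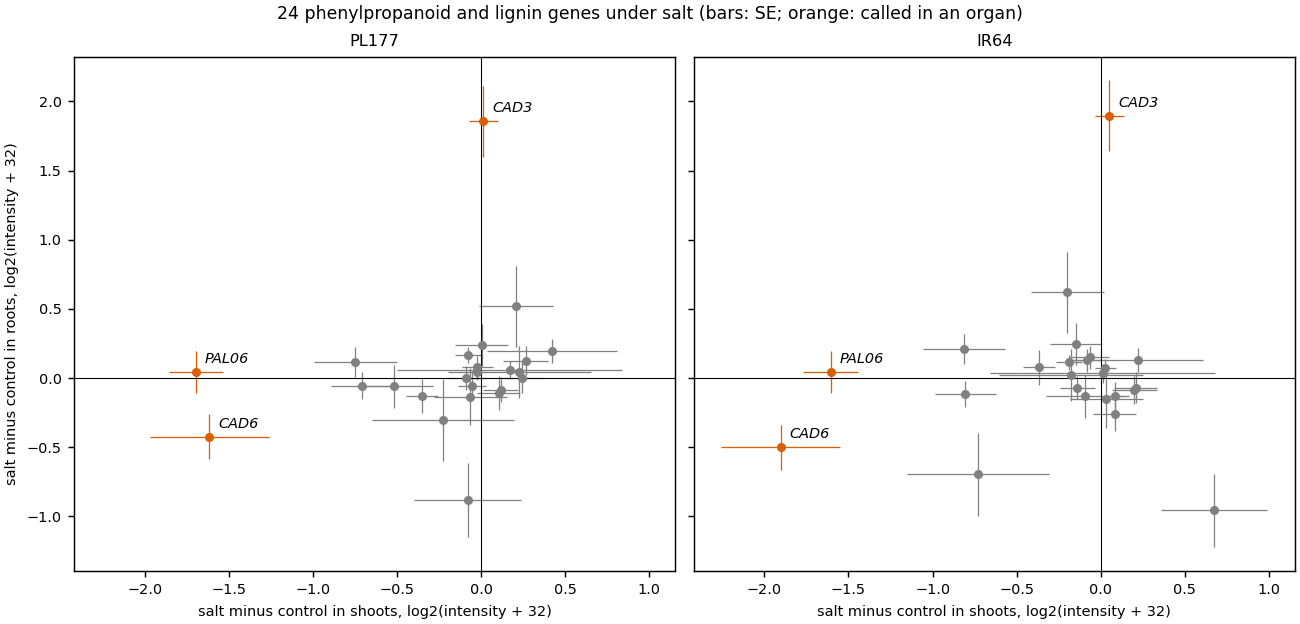
Salt minus control in roots against salt minus control in shoots, both in log2(intensity + 32), for the 24 pathway genes in PL177 (left) and IR64 (right), with bars for the SE and orange for genes called in an organ. PAL06 and CAD6 lie to the left, with shoot values of -1.70 and -1.62 for PL177 and of -1.61 and -1.90 for IR64, and CAD3 lies at the top, at 1.86 and 1.90 in roots.

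The genes most like the 3 selected members were taken as those with the highest Pearson correlation over the 12 group means, among 17801 probe sets that have 1 gene and a mean intensity of at least 64 over all arrays. For 4CL5 these were LOC4327052 (r = 0.98), LOC4330343 (0.98) and LOC4346925 (0.98). For LAC15 they were LOC4324375 (0.96), LOC4346877 (0.955) and CYP99A2 (0.94), a cytochrome P450 of the diterpenoid gene cluster of rice. For LAC19 they were LOC4345477 (0.98), LOC4342571 (0.97) and LOC4329723 (0.97). These values describe the group means of the same arrays, and were picked as the highest of the pool.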

How the data were processed

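RNA of 36 rice seedling samples was hybridised to Affymetrix rice arrays, 1 array a sample. The authors deposited linear intensities, 1 value for each of 57381 probe sets and array. Their summarisation and earlier normalization: not given in the sources used here. After 123 control probe sets were left out, 57258 were tested. Intensities were quantile normalized within each organ (18 arrays), or over all 36 arrays for comparisons between organs, put on the scale log2(intensity + 32) and fitted with limma 3.58.1 in R 4.3.3, with Benjamini-Hochberg adjustment over all probe sets. Tables and plots were made with Python 3.11.15, pandas 2.3.3, numpy 2.4.6 and matplotlib 3.10.9. The fit was tested on simulated data. Groups came from the labels, and the number of arrays limits the precision.

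A platform annotation named 1 gene for 22436 probe sets, several for 95 and none for 34727. Named were all members (for 4CL4 the brighter of its probe sets leads), up to 3 called genes in each direction per comparison from a phenylpropanoid and lignin list, and the 3 genes most alike to each of 4CL5, LAC15 and LAC19. The members and lists were chosen with earlier results of these data known. Alternatives changed the added constant, the scaling, a minimum mean intensity of 64, the test, the arrays fitted, a replicate block, and each array in turn. A t-test was run on the same values, with and without adjustment.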

Additional observations from a re-analysis of the deposited data

Results flagged for a closer look

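The treatment differences of the selected genes ran in opposite directions in the organs, with every treated array of one organ below and every treated array of the other above its controls. The values given here are shoot minus root differences on the log2(intensity + 32) scale, each organ normalized on its own. These genes were selected on treatment values, so the difference between organs was not tested. How many of all probe sets separate in this way was not computed. For 4CL5 it was -3.501 in PL177 and -3.667 in IR64 under salt, and -2.768 and -2.58 under salt+ABA against control. For LAC19 it was -2.94 and -1.936 under salt and -5.682 and -5.55 under salt+ABA against control, and -3.613 for salt+ABA against salt in IR64. For LAC15, whose shoot intensities are near the floor of the array, it was -1.065 and -0.792 under salt and -3.187 and -3.381 under salt+ABA against control.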

How the results depend on the processing

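With no fold threshold, 2 of the 48 treatment tests of 4CL1 to 4CL4 and 22 of their 32 organ tests passed, and under salt 4 and 4 genes of the pathway list in PL177 and IR64 shoots and 2 and 2 in roots. With only the compared arrays fitted, 1 list gene was called in PL177 shoots, and with 8 added to the intensity 2 in IR64 roots. The t-test, after adjustment, called 0, 0, 0 and 0 list genes under salt, and 0, 40, 8 and 10 of all 57258 probe sets in the same comparisons. Before adjustment, a t-test p below 0.05 with over 2-fold held for 2, 2, 1 and 1 list genes. When each array was left out in turn, the counts stayed at 0 to 0 for treatment, genotype and response differences, at 12 to 12 between organs and at 2 to 2 for the list in PL177 shoots. They ran from 2 to 3 in IR64 shoots, from 1 to 2 in PL177 roots (2 without salt replicate 1 or control replicate 2 of PL177) and from 1 to 2 in IR64 roots (2 without salt replicate 1 or control replicate 2 of IR64). With the replicate number as a replicate block, the counts were 0 for treatment, genotype and response differences, 12 between organs, and 2, 2, 1 and 1 for the list. A random block within treatment, chosen after seeing the data, gave the same counts. Deviations of PL177 and IR64 arrays with the same number and treatment correlated positively in all 18 pairs, with medians of 0.42 in shoots and 0.27 in roots. Different numbers gave -0.27 and -0.19, which adds no separate support, because deviations from a mean of 3 arrays offset each other. Same numbers in different treatments gave medians of -0.01 and -0.03. The first values are a hint of something shared by number within a treatment that the labels do not state. Of the pairs with the same number and treatment, 7 of 9 in shoots and 8 of 9 in roots were over 0.1. In control shoots, control roots and salt roots each pair was over 0.1, and in the other combinations not every pair was. The random block had a consensus correlation of 0.27 in shoots and 0.19 in roots. The fit without the block was kept, and the block fits gave the same counts. No called difference reversed under any alternative. Of the described differences, that of 4CL5 for salt+ABA against salt in PL177 roots went from -0.14 to 0.08 without salt replicate 1 and that of LAC15 in PL177 shoots from 0.02 to -0.01 without salt replicate 2, and uncalled organ differences of 4CL3 and 4CL4 changed sign with the scaling. With 3 arrays a group, small differences could be missed, and values below 32 are compressed.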
